A study of Mus musculus with 8 samples.

Results

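The Slc22 organic ion transporters described here are Slc22a2, Slc22a6, Slc22a7, Slc22a8, Slc22a12, Slc22a19, Slc22a27, Slc22a29 and Slc22a30, 9 genes chosen by name from the Slc22 family. A gene counted as measured if the accession of a probe on the arrays named it in the reference table and if the probe was well above background in at least 4 of the 8 channels. This held for 8 of the 9 genes, each with 1 probe, among 22122 genes and unnamed probes measured in all, and all 8 probes were well above background in 8 of 8 channels and saturated in 0. No probe was matched to Slc22a30, which is not analysed here. The study compared kidneys of 4 mice homozygous for a mutation of Pus1 with kidneys of 4 wild-type mice. The Pus1 product is a pseudouridine synthase of tRNA and other RNAs, and the mutant is described by the submitters as a knockout. All mice were 14 to 16 weeks old, on a C57BL/6J background after 5 generations of backcrossing, and no treatment is given. Replicates 1 and 2 of each genotype were female and replicates 3 and 4 were male, so each combination of sex and genotype held 2 mice. Each of the 4 dual-channel Agilent arrays took RNA from frozen cross sections of whole kidney, pairing a mutant with a wild-type animal of like sex, with the mutant in Cy5 on arrays 1 and 3 and in Cy3 on arrays 2 and 4. Which part of Pus1 is altered, in which cells, and whether the mice were littermates is not stated in the labels.

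Slc22 proteins are carriers of the plasma membrane that move organic anions, cations and zwitterions. In the kidney most of them sit in the proximal tubule, where carriers of the basolateral side take drugs, toxins and metabolites out of the blood and carriers of the apical side exchange them with the urine. Several members are known in rodents to differ between the sexes, and a run of them lies side by side on mouse chromosome 19.

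The Cy3 channels had median spot intensities of 97 to 105 against local backgrounds of 51 to 57. The Cy5 channels were brighter, with medians of 220 to 245.5 and backgrounds of 141 to 144. Pus1 was lower in 4 of 4 mutants than in every wild-type kidney, with a log2 ratio of −2.96 ± 0.07 (SE, n = 4 arrays, limma adjusted p = 0.000408). Proximal tubule markers were all measured, 11 of 11, and Lrp2, the megalin gene, averaged 17.08 in females and 16.51 in males on the log2 scale. Correlations of log2 levels across genes, which are not independent replicates, were 0.990 to 0.995 between kidneys of the same sex and 0.955 to 0.969 between kidneys of opposite sex. Arrays 1 and 2 of the slide held females and arrays 3 and 4 males, which means that a position effect and a sex effect cannot be told apart. Fewer cells of a type and less RNA per cell cannot be told apart in whole kidney sections either.

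Promoter sequences are shown for a pair of neighbours on chromosome 19, from RefSeq's GRCm38.p6 table, which covers 300 bases around the annotated start, most of them upstream, and holds 8 of the 9 transporters, all but Slc22a7. The pair is that of Slc22a29, the member with the largest sex difference, and of its neighbour Slc22a28, a further Slc22 gene that differed between the sexes the other way. Capitals mark the longest run of letters that both promoters hold, 22 bases, which begins at −15 in Slc22a29 and at −33 in Slc22a28 relative to the annotated start.
Slc22a29 (chr19:8218851-8219150, minus strand): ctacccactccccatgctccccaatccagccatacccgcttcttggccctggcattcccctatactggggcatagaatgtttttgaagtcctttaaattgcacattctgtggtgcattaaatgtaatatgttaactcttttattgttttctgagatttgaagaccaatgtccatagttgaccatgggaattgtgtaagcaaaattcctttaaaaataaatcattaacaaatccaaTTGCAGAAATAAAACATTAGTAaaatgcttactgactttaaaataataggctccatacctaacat
Slc22a28 (chr19:8131933-8132232, minus strand): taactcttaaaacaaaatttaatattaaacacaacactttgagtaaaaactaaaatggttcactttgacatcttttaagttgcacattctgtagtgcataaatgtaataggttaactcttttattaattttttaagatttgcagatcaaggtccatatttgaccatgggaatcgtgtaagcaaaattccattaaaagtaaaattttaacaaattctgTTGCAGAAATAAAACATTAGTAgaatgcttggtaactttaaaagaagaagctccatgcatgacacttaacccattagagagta

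After pairwise global alignment, 217 of 300 bases (72.3%) were identical between the promoters of Slc22a28 and Slc22a29. Slc22a28 and the unmeasured Slc22a30 shared 96% and Slc22a29 and Slc22a30 71.7%, against a median of 53% over the 45 pairs among 10 Slc22 promoters. The promoter of Slc22a27 shared 53.7% with that of Slc22a29 and 50% with that of Slc22a28. The letters CAAAGT, part of the HNF4 motif, were in 3 of 8 members (Slc22a12, Slc22a19 and Slc22a30) and in 14.4% of all promoters. The letters TTCNNNGAA, common to STAT5 and BCL6 sites, were in 1 of 8 (Slc22a19) and in 8.3% of all. Both strands were searched, no match overlapped another in these members, and a match in letters is a description only.

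In the sex comparison 8 of 8 measured members passed limma's separate-channel test at an adjusted p of 0.05, with 3 higher in males (Slc22a2, Slc22a6 and Slc22a12) and 5 higher in females (Slc22a7, Slc22a8, Slc22a19, Slc22a27 and Slc22a29). Sex differences were widespread in these kidneys: 45.5% of all 22122 items passed the same test, 18.4% higher in males and 27.1% higher in females. Which sex held more of these calls depended on the fit. The 4 males and the 4 females did not overlap for 7 of 8 members, against 43.0% of all items. All males lay above all females for 3 members, against 18.0% of all items, and all females above all males for 4, against 25.0%. The members were chosen with earlier results of these data known, so setting these counts against all items is a description only. The probes were A_51_P161308 for Slc22a2, A_51_P360655 for Slc22a6, A_51_P395856 for Slc22a7, A_55_P1995407 for Slc22a8, A_55_P2036236 for Slc22a12, A_55_P2057370 for Slc22a19, A_55_P1991841 for Slc22a27 and A_51_P144531 for Slc22a29. Levels are normalized log2 intensities and differences are male minus female on that scale. Of the 8 members, 6 passed under all 15 alternatives tried, while Slc22a7 and Slc22a12 did not.

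**Figure D1:**
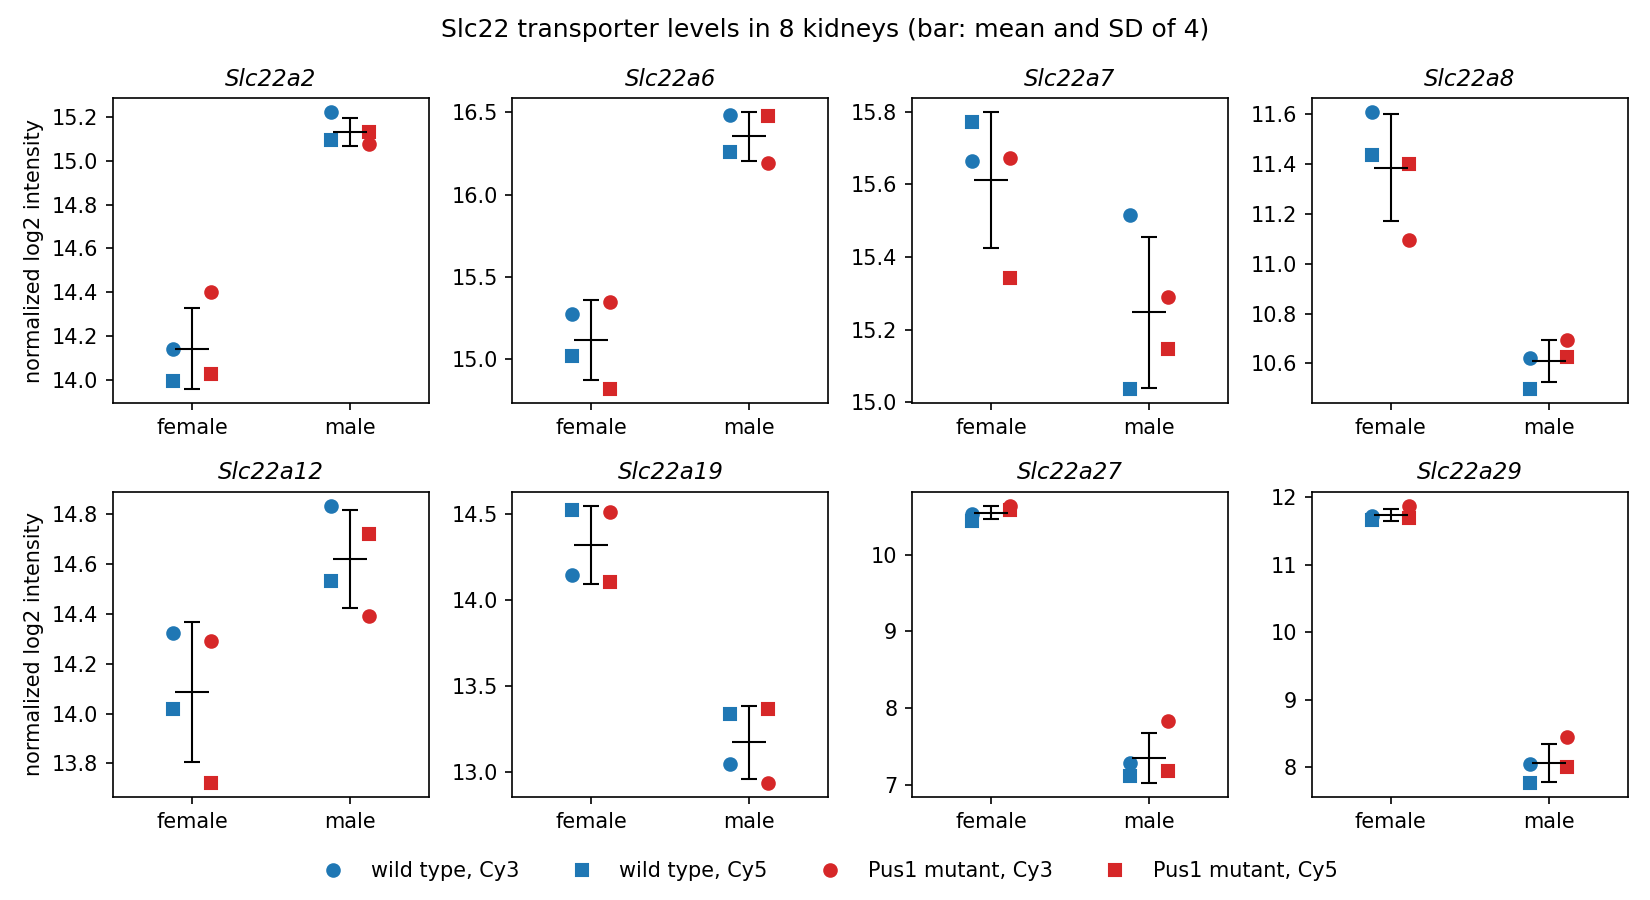
Normalized log2 intensity of the 8 measured transporters in each of 8 kidneys, by sex; circles are Cy3 and squares Cy5 channels, blue is wild type and red is Pus1 mutant, and the black bar is the mean and SD of 4 kidneys. Vertical axes differ between panels and do not start at 0; male and female points overlap only for Slc22a7.

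Slc22a2 encodes Oct2, the carrier that takes organic cations such as metformin and creatinine from the blood into proximal tubule cells. Its level was 14.14 and 14.00 in wild-type and 14.03 and 14.40 in mutant females, and 15.22 and 15.10 in wild-type and 15.13 and 15.08 in mutant males. Every male lay above every female, and the spread among the 4 males was small. The mean was 14.14 ± 0.18 (SD, n = 4) in females and 15.13 ± 0.07 (SD, n = 4) in males. The difference was 0.99 ± 0.10 (SE, n = 8 kidneys; 95% interval 0.75 to 1.23), a 1.99-fold higher level in males (limma adjusted p = 7.42e-04).

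Slc22a6 and Slc22a8 encode Oat1 and Oat3, the basolateral exchangers that bring organic anions into the proximal tubule in return for dicarboxylates. Although neighbours on chromosome 19, they differed between the sexes in opposite directions. Slc22a6 read 15.27 and 15.02 in wild-type and 14.82 and 15.35 in mutant females, and 16.48 and 16.26 in wild-type and 16.48 and 16.19 in mutant males. Males were all above females. The Slc22a6 difference was 1.24 ± 0.15 (SE, n = 8 kidneys; 95% interval 0.89 to 1.59), 2.36-fold higher in males (limma adjusted p = 0.00137), with means of 15.11 ± 0.24 (SD, n = 4) in females and 16.35 ± 0.15 (SD, n = 4) in males. Slc22a8 read 11.61 and 11.44 in wild-type and 11.40 and 11.09 in mutant females, and 10.62 and 10.50 in wild-type and 10.63 and 10.70 in mutant males. Here the females were all above the males, whose values lay close together. The Slc22a8 difference was −0.77 ± 0.11 (SE, n = 8 kidneys; 95% interval −1.03 to −0.52), 1.71-fold higher in females (limma adjusted p = 0.0023), with means of 11.39 ± 0.21 (SD, n = 4) in females and 10.61 ± 0.08 (SD, n = 4) in males.

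Slc22a7 encodes Oat2, a carrier of organic anions and of purine compounds. It was the member with the smallest sex difference and the one whose sexes overlapped. Its level was 15.66 and 15.77 in wild-type and 15.34 and 15.67 in mutant females, and 15.52 and 15.04 in wild-type and 15.15 and 15.29 in mutant males. The highest male, wild-type replicate 3, lay above the lowest female, mutant replicate 1. The difference was −0.37 ± 0.12 (SE, n = 8 kidneys; 95% interval −0.64 to −0.09), 1.29-fold higher in females (limma adjusted p = 0.0409), from 15.61 ± 0.19 (SD, n = 4) in females and 15.25 ± 0.21 (SD, n = 4) in males. The call was lost without replicate 1, 2 or 4 (adjusted p = 0.0864, 0.234 and 0.141), and with the mean of each array as the unit, 2 arrays a sex (0.0533), a fit that called 43.8% of all items.

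Slc22a12 encodes Urat1, the apical exchanger that takes urate back from the tubule fluid. Its level was 14.32 and 14.02 in wild-type and 13.72 and 14.29 in mutant females, and 14.83 and 14.53 in wild-type and 14.72 and 14.39 in mutant males. All males were above all females, by a gap much smaller than the range within each sex. The difference was 0.53 ± 0.16 (SE, n = 8 kidneys; 95% interval 0.15 to 0.91), 1.45-fold higher in males (limma adjusted p = 0.0337), from 14.09 ± 0.28 (SD, n = 4) in females and 14.62 ± 0.20 (SD, n = 4) in males. It did not pass without replicate 1 or 2 (adjusted p = 0.145 and 0.0998) or with Agilent's processed signals (0.0627).

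Slc22a19 encodes Oat5, an organic anion carrier that in rats lies on the apical membrane of the late proximal tubule. Its level was 14.15 and 14.52 in wild-type and 14.11 and 14.52 in mutant females, and 13.05 and 13.34 in wild-type and 13.37 and 12.94 in mutant males. Every female lay above every male. Means were 14.32 ± 0.23 (SD, n = 4) in females and 13.17 ± 0.21 (SD, n = 4) in males, a difference of −1.15 ± 0.16 (SE, n = 8 kidneys; 95% interval −1.53 to −0.77) and 2.22-fold higher in females (limma adjusted p = 0.00234).

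Slc22a27 and Slc22a29 belong to the rodent branch of organic anion transporter genes on chromosome 19, and their substrates are less well known. They had the largest sex differences among the members. Slc22a29 read 11.72 and 11.66 in wild-type and 11.70 and 11.88 in mutant females, and 8.04 and 7.77 in wild-type and 8.01 and 8.45 in mutant males. The 4 females were within a narrow range and far above the 4 males, of which mutant replicate 4 was the highest. Slc22a29 differed by −3.68 ± 0.10 (SE, n = 8 kidneys; 95% interval −3.91 to −3.44), 12.8-fold higher in females (limma adjusted p = 2.11e-05), from 11.74 ± 0.10 (SD, n = 4) in females and 8.07 ± 0.28 (SD, n = 4) in males. Slc22a27 read 10.53 and 10.43 in wild-type and 10.58 and 10.64 in mutant females, and 7.29 and 7.11 in wild-type and 7.18 and 7.83 in mutant males. The same male, mutant replicate 4, was again the highest. Slc22a27 differed by −3.20 ± 0.13 (SE, n = 8 kidneys; 95% interval −3.50 to −2.89), 9.16-fold higher in females (limma adjusted p = 4.64e-05), from 10.55 ± 0.09 (SD, n = 4) in females and 7.35 ± 0.33 (SD, n = 4) in males.

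A sex difference of at least 3 on the log2 scale was found for 0.561% of all 22122 items, and a female excess of that size for 16 items (0.0723%). Only 5 items had a larger female excess than Slc22a29, and 13 had a larger one than Slc22a27. The size of the difference depended on the processing. With a smaller offset of 16 in the background correction it was −3.51 for Slc22a27 and −3.86 for Slc22a29. With Agilent's processed signals the difference was −4.19 for both genes, an 18.2-fold higher level in females. With the authors' processed values it was −4.18 for both, or 18.1-fold. The values −4.19 and −4.18 lay outside the 95% intervals of both genes, and −3.51 lay outside that of Slc22a27. The folds and intervals of the preceding paragraph and the ranks given here were obtained with the larger offset. Both genes are paralogs of their neighbours, and whether their probes tell these apart was not tested.

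The sex difference of each member had the same sign in both genotypes. Between 2 males and 2 females of 1 genotype, the log2 difference in wild type and in mutants was 1.09 and 0.89 for Slc22a2, 1.23 and 1.26 for Slc22a6, and 0.51 and 0.55 for Slc22a12. It was −0.44 and −0.29 for Slc22a7, −0.96 and −0.59 for Slc22a8, and −1.14 and −1.16 for Slc22a19. For Slc22a27 it was −3.28 and −3.11, and for Slc22a29 −3.79 and −3.56. These values within a genotype were not tested. Within a dye, the Cy3 channels gave −3.03 and −3.56 for Slc22a27 and Slc22a29 and the Cy5 channels −3.37 and −3.80, while Slc22a12 gave 0.31 in Cy3 and 0.76 in Cy5.

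**Figure D2:**
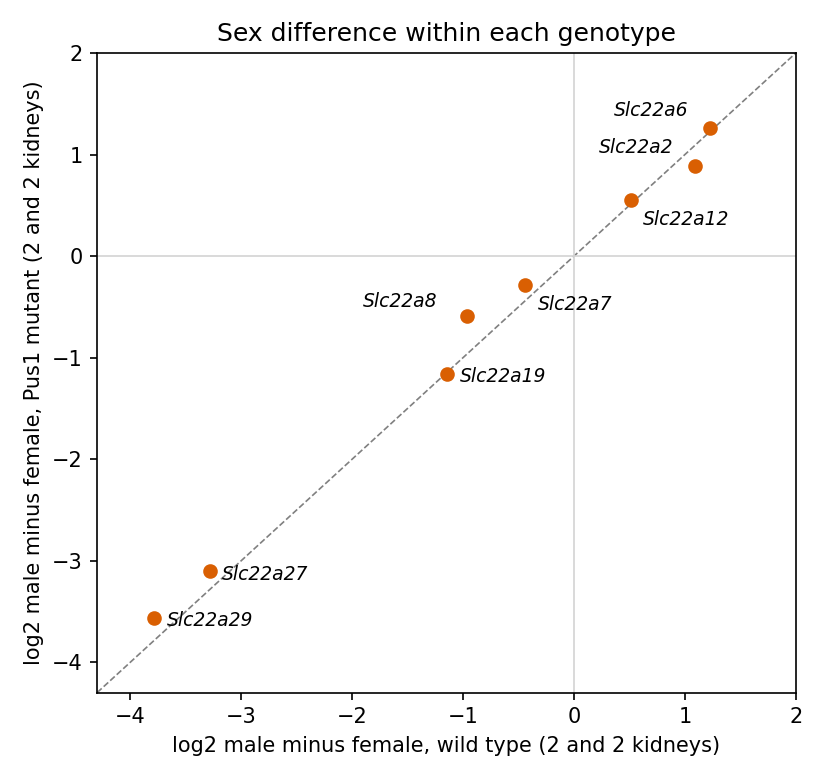
Log2 male minus female difference of the 8 transporters in wild-type kidneys (horizontal, 2 males and 2 females) and in Pus1 mutant kidneys (vertical, 2 males and 2 females); the dashed line marks equal differences. All 8 points have the same sign on both axes and lie near the line, with Slc22a29 at −3.79 and −3.56 and Slc22a8, at −0.96 and −0.59, the farthest from it.

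The difference of the mutant over wild-type ratio between male and female pairs was tested with limma over all items, of which 31 (0.140%) passed. Of the 8 members 0 passed, and 0 had an unadjusted p under 0.05, against 3.83% of all items. Slc22a8 had the largest difference, 0.38 ± 0.19 (SE, n = 4 arrays; 95% interval −0.07 to 0.82, adjusted p = 1.00). The 95% intervals of the 8 members lay within −0.67 and 0.82, so differences of that size between the sexes could not be seen with 1 residual degree of freedom. Of 7 measured markers of perirenal fat 5 passed in this comparison, with a median of 2.90, but 0 of all items passed with Agilent's processed signals or with an offset of 16 in the background correction. The fat list's calls are thus lost there, and the 6 urothelium markers had a median of 2.64 with 0 past the test. The mean log2 level of the fat markers was 11.12 to 14.06 in females and 10.51 to 13.04 in males, and that of the urothelium markers 8.26 to 10.65 and 7.58 to 10.01. Their part in the members' values was not tested.

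No member passed the test for genotype. The 4 array ratios were fitted with limma, allowing for dye, and 0 of 8 members passed, against 6 of 22122 items (0.0271%), 0.00904% higher and 0.0181% lower in mutants. Among the members 0 had an unadjusted p under 0.05, against 4.47%. Mutants and wild type overlapped for all 8 members, whereas they did not overlap for 0.655% of all items. The fitted differences were 1.02-fold to 1.16-fold, and the 95% intervals lay within −0.43 and 0.47 on the log2 scale. A p that misses the threshold does not show that the genotypes are alike.

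For the cation carrier Slc22a2 the log2 ratio of mutant over wild type was −0.11, 0.41, −0.09 and −0.02 on arrays 1 to 4, with a fitted value of 0.05 ± 0.09 (SE, n = 4 arrays). The ratio of Slc22a6 was −0.46, 0.33, −0.00 and −0.07, fitted at −0.05 ± 0.11, and that of Slc22a8 was −0.21, −0.34, 0.00 and 0.20, fitted at −0.09 ± 0.11. No member had 1 sign on all 4 arrays, and the share of all items that did was not computed. The ratio of Slc22a7 was −0.32, −0.10, −0.37 and 0.26, fitted at −0.13 ± 0.09. The apical carriers had ratios of −0.60, 0.27, −0.11 and −0.14 for Slc22a12, fitted at −0.14 ± 0.12, and −0.04, −0.01, 0.32 and −0.40 for Slc22a19, fitted at −0.03 ± 0.10. Array 1 gave the lowest ratio for Slc22a6 and Slc22a12, and array 4 the lowest for Slc22a19. Slc22a27 gave 0.05, 0.20, −0.11 and 0.72, fitted at 0.22 ± 0.10, and Slc22a29 gave −0.02, 0.22, −0.03 and 0.68, fitted at 0.21 ± 0.10. These last genes had the largest fitted ratios, and array 4, a male pair, gave the highest single ratio for each. For both genes the mutant on that array was the highest of the 4 males and the wild type the lowest. Without replicate 4 the fitted ratios were 0.087 for Slc22a27 and 0.096 for Slc22a29, smaller in size than those of Slc22a7 (−0.22), Slc22a8 (−0.22) and Slc22a2 (0.15) in the same fit, so their rank rests on that array. The lowest adjusted p among the members was 0.980.

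**Figure D3:**
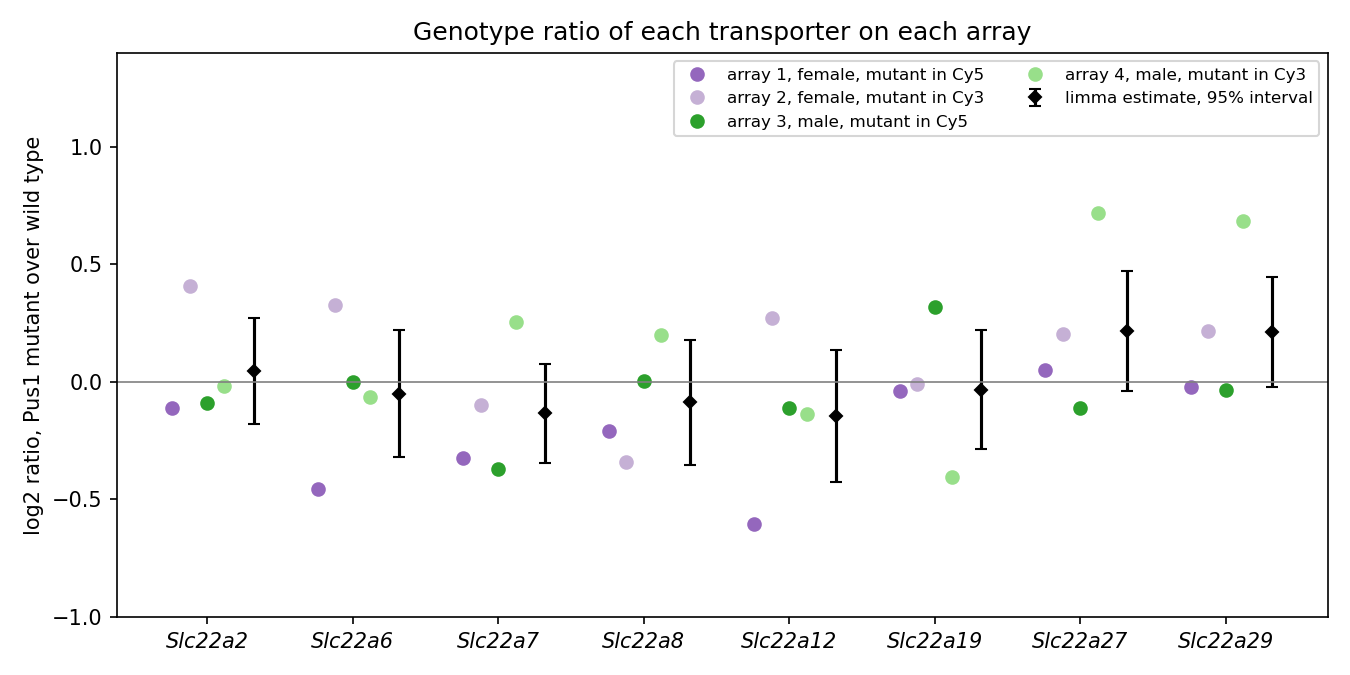
Log2 ratio of Pus1 mutant over wild type for the 8 transporters, with 1 coloured point for each of 4 arrays and a black diamond for the limma estimate with its 95% interval. All 8 intervals include 0 and the arrays of a gene fall on both sides of it, from −0.60 for Slc22a12 on array 1 to 0.72 for Slc22a27 on array 4.

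Of the measured members 6 lie on chromosome 19 and the other two, Slc22a2 and Slc22a7, on chromosome 17. In the order of the reference annotation 8 protein-coding genes follow each other from Slc22a19 to Slc22a6, and all are Slc22 genes: Slc22a19, Slc22a26, Slc22a27, Slc22a28, Slc22a29, Slc22a30, Slc22a8 and Slc22a6. Both signs of sex difference occurred along this run. The difference was −1.15 for Slc22a19, 0.79 for Slc22a26 (adjusted p = 0.135), −3.20 for Slc22a27, 3.14 for Slc22a28, −3.68 for Slc22a29, −0.77 for Slc22a8 and 1.24 for Slc22a6, with Slc22a30 not measured. Slc22a28 averaged 10.73 ± 0.38 in females and 13.88 ± 0.26 in males (SD, n = 4 each, limma adjusted p = 0.000258), and its other probe gave 2.03 ± 0.15 (SE). It lies between Slc22a27 and Slc22a29, which had differences of the opposite sign. Whether the probes of Slc22a28 and Slc22a19 tell these genes from their paralogs, among them the unmeasured Slc22a30, was not tested either.

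**Figure D4:**
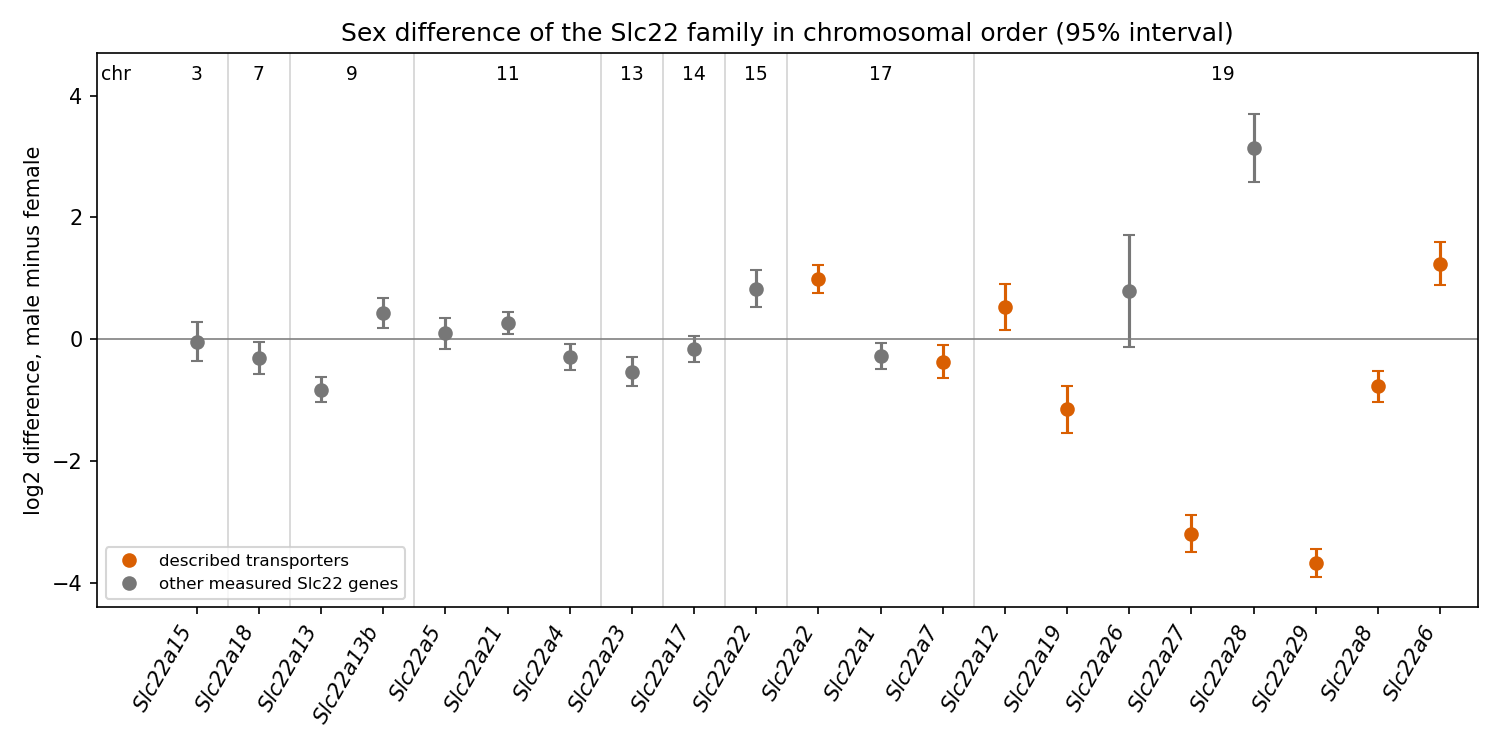
Log2 difference of male minus female kidneys for the 21 measured Slc22 genes, in the order in which they lie on their chromosomes (numbers at the top), with 95% intervals from limma; orange marks the 8 described transporters. Values run from −3.68 for Slc22a29 to 3.14 for Slc22a28, which are neighbours on chromosome 19.

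Of 17 other Slc22 genes listed, 12 were measured, and 3 were higher in males and 4 in females, with a median difference of −0.10, the same as over all items (−0.10). Slc22a13, a urate and nicotinate transporter gene, differed by −0.83 ± 0.08 (SE, n = 8 kidneys, limma adjusted p = 0.000758). Slc22a22, which encodes a prostaglandin carrier, differed by 0.83 ± 0.13 (adjusted p = 0.00332), and Slc22a23, an orphan member, by −0.53 ± 0.10 (adjusted p = 0.00712). None of the 12 passed for genotype or for the difference of the mutant over wild-type ratio between the sexes. Slc22a13b, a further measured Slc22 gene outside this list, was higher in males by 0.43 ± 0.10 (SE, n = 8 kidneys, limma adjusted p = 0.0161).

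Of 25 partner carriers of the proximal tubule, all measured, 10 were higher in males and 8 in females, with a median of −0.20. Slc17a2, a phosphate transporter family gene, differed by −3.64 ± 0.15 (SE, n = 8 kidneys, limma adjusted p = 4.88e-05). The efflux pump gene Abcb1b, a P-glycoprotein, differed by −1.85 ± 0.10 (adjusted p = 8.08e-05), and Abcc4, which encodes the apical anion pump Mrp4, by −1.55 ± 0.15 (adjusted p = 0.000754). Slco3a1, an organic anion transporting polypeptide gene, differed by 1.76 ± 0.11 (adjusted p = 0.000142). The dicarboxylate carrier gene Slc13a3, whose product fuels the exchange by Oat1 and Oat3, had a difference of −0.18 (adjusted p = 0.161). For genotype 0 of these 25 passed.

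Among genes of regulators and scaffold proteins known to act on these carriers or to mediate sex differences, 2 of 16 were higher in males and 3 in females, with a median of −0.08. The prolactin receptor gene Prlr differed by −2.59 ± 0.22 (SE, n = 8 kidneys, limma adjusted p = 0.000398). The xenobiotic receptor genes Nr1i2 and Ahr differed by −0.64 and −0.56 (adjusted p of 0.00429 and 0.00678), and the oestrogen receptor gene Esr1 by 0.52 (0.00574). Values for Hnf4a (−0.07, adjusted p = 0.607) and the scaffold gene Pdzk1 (−0.08, 0.480) did not pass.

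Of 11 proximal tubule markers, 3 of which (Slc5a12, Slc13a3 and Hnf4a) also stand in the lists above, 1 was higher in males, Ggt1 at 0.62, and 2 in females, Lrp2 at −0.57 and Cubn at −0.58, with a median of −0.20. Their mean log2 level was 16.10 to 16.43 in females and 16.08 to 16.18 in males, ranges that overlap. Distal convoluted tubule markers had a mean level of 11.50 to 11.92 in females and 11.01 to 11.36 in males, with 3 of 4 higher in females (median −0.49), endothelial markers 10.38 to 10.55 and 10.08 to 10.27, with 2 of 4 higher in females (median −0.32). Thick ascending limb (1 of 5 higher in males, 2 in females), collecting duct (1 of 6 higher in females), podocyte (2 of 4 higher in females), fibroblast and smooth muscle (1 of 5 higher in males) and immune markers (2 of 3 higher in females) had medians of −0.24, −0.15, −0.49, 0.01 and −0.41. The mean level of the immune markers was 10.44 to 10.85 in females and 10.09 to 10.37 in males, ranges that do not overlap. Fat markers (0 of 7) and urothelium markers (0 of 6) did not pass for sex, with medians of −0.42 and −0.20. Of 5 liver markers 1 was higher in males and 2 in females (median −0.47). The part of these cell types in the members' sex differences was not tested.

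The genes whose levels followed each member most closely over the 8 kidneys were named by Pearson correlation, as a description. The kidneys fall into 2 clusters by sex, so the values mostly restate the sex difference, and they share arrays and dyes. Slc22a27 and Slc22a29 were each other's closest named gene among all, with a correlation of 0.999, followed by Commd1 (0.998) and Rpl31-ps12 (0.997). For Slc22a6 they were Pecr (0.994), a peroxisomal enoyl-CoA reductase gene, and the carboxylesterase gene Ces2b (0.990). Closest to Slc22a2 were Lamtor2 and Gm17783 (0.993 each), to Slc22a8 Rpl27 (0.996) and Wdr62 (0.992), and to Slc22a19 Ear10 (0.996) and Prss12 (0.994). Slc22a7 was closest to Anxa3 and Spns3 (0.979 each) and Slc22a12 to Zfp276 and Tram2 (0.978 each). Zfp276 and Tram2 did not pass for sex (limma adjusted p = 0.0651 and 0.113), while the other genes named did. With dye removed 7 of these 16 names stayed, and by Spearman's rank, where many genes tie over 8 kidneys, 0 stayed.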

How the data were processed

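Total RNA of frozen kidney cross sections was labelled from 200 ng per sample and hybridised to 4 dual-channel arrays on 1 slide, per the labels' protocols. The deposited intensity values are spot and local background medians and processed signals. They were made with Agilent Feature Extraction (version 10.7.3.1 in the submitters' processing notes). The authors' deposited value table holds log2 values centred on each probe's median over the 8 samples, as read from the values themselves; its slope against the levels computed here was 0.955 to 1.05 over 9534 bright items and 1.24 to 1.48 over all items, and its column medians were −0.022 to 0.018. The sources used here do not give its normalization.

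Intensities were corrected with normexp (offset 50) and normalized by loess within arrays with limma 3.58.1 in R 4.3.3. Control spots (3671 of 62976) and 191 to 252 outlier spots per array were left out. Probes were named through accessions in the reference table (27509 of 55681), and each gene or unnamed accession was represented by its brightest probe well above background in at least 4 channels, which gave 22122 items, 14284 with a symbol. Levels were scaled with Aquantile. Genotype was tested on 4 log2 ratios with a dye term (2 residual degrees of freedom), sex with limma's separate-channel fit on 8 channels (intraspot correlation 0.157, estimated without a sex by genotype term; 3 residual degrees of freedom), and the sex by genotype difference on the 4 ratios (1 residual degree of freedom). All p values are 2-sided and adjusted by Benjamini-Hochberg over all items. The scripts were tested on simulated data. The number of arrays limits the precision: the median SE was 0.0813 for genotype and 0.0983 for sex. Nothing says whether the mice came from separate litters or days.

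The pairing of mutant and wild type comes from the shared array. Deviations from genotype means correlated by 0.680 to 0.782 within replicate numbers, values that include the sex difference; deviations from the means of sex and genotype correlated by −0.266 for replicates 1 and 2 and 0.0728 for 3 and 4. Members and lists were chosen with earlier results of these data known. Named genes are all members and the 2 named genes most correlated with each. Per list, up to 4 genes past the test are named, by smallest adjusted p. Genes in the chromosome 19 run, Slc22a13b and the values given for genes that did not pass were chosen after their values were seen. Promoters were aligned with Biopython 1.88. Of 4 motifs searched in them, 2 are not reported here. Alternatives comprised other signals, offsets, normalizations, filters, probe rules, correlations and left-out replicates.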

Additional observations from a re-analysis of the deposited data

Results flagged for a closer look

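The mutant over wild-type ratio of Slc22a8 was −0.21 and −0.34 on the female arrays and 0.00 and 0.20 on the male arrays. A positive ratio in males thus rests on array 4 alone. The difference between the sexes was 0.38 ± 0.19 (SE, n = 4 arrays) on the log2 scale, with an unadjusted p of 0.0834 and an adjusted p of 1.00 by limma over all items, so the test of the difference itself did not pass. Without 1 replicate the difference was 0.21 to 0.54, with no test.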

How the results depend on the processing

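For sex, Slc22a2, Slc22a6, Slc22a8, Slc22a19, Slc22a27 and Slc22a29 kept their direction and passed under all 15 alternatives, with adjusted p up to 0.0423. Slc22a7 (−0.48 to −0.26) and Slc22a12 (0.37 to 0.69) kept their direction but lost the call under 8 and 6 of the 15, among them the intraspot correlation of the whole model, 0.778 (adjusted p = 0.195 and 0.260), no filter on dim probes (0.0723 and 0.0585), processed signals (0.0540 and 0.0627) and the authors' processed values (0.0531 and 0.0645). The count of items that differed by sex was 3838 with the whole model's correlation and 2543 to 8549 without 1 replicate, against 10064, and 3143 without replicate 1 and 2543 without replicate 2; the cause was not tested. With the whole model's correlation 2057 items were higher in males and 1781 in females, against 4070 and 5994 in the main fit. More of the calls were higher in males without replicate 1 or 2 as well. Without a replicate the correlation of all 4 arrays was used.

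For genotype 0 members passed under any of 13 alternatives. The count of items was 0 with processed signals and with the authors' processed values, 10 with median normalization and 1 to 3 without 1 replicate, against 6. Fitted ratios near 0 changed sign without 1 replicate: they ran from −0.16 to 0.06 for Slc22a6, −0.13 to 0.066 for Slc22a19, −0.060 to 0.15 for Slc22a2 and −0.22 to 0.049 for Slc22a8. With no replicate block, 5 items were called for genotype and 10670 for sex, 0 and 8 of them members, as with the block. For sex by genotype, 0 members passed under the 6 alternatives with a test; leaving out a replicate left no residual degrees of freedom, and the untested values then ran from −0.39 to 0.46 for Slc22a6, −0.41 to 0.49 for Slc22a12, −0.40 to 0.36 for Slc22a19, −0.43 to 0.02 for Slc22a2, −0.05 to 0.35 for Slc22a7, −0.16 to 0.52 for Slc22a27, −0.01 to 0.47 for Slc22a29 and 0.21 to 0.54 for Slc22a8. The count of items was 0 with processed signals and with an offset of 16, 223 with median normalization, 66 with no filter and 54 with every probe as its own item, against 31. The difference was −0.11 for Slc22a6 and 0.027 for Slc22a19 with processed signals, and 0.049 for Slc22a19 with median normalization, against 0.03 and −0.02.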

Other observations

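Kidney genes known to depend on sex in mice, 14 listed and measured, included 9 that were higher in males and 4 in females, with a median difference of 1.33 on the log2 scale against −0.10 over all items. Acsm3, a medium-chain acyl-CoA synthetase gene, differed by 5.55 ± 0.25 (SE, n = 8 kidneys, limma adjusted p = 5.85e-05), and Cyp7b1, an oxysterol hydroxylase gene, by 5.40 ± 0.22 (adjusted p = 4.88e-05). Cyp4b1, a fatty acid hydroxylase gene, differed by 3.18 ± 0.13 (adjusted p = 4.94e-05) and the amino acid transporter gene Slc7a12 by −4.07 ± 0.13 (adjusted p = 2.99e-05). Kap, the kidney androgen-regulated protein gene, had a difference of −0.04 (adjusted p = 0.750), from very high means of 18.73 in females and 18.69 in males. Whether saturation of the signal limited this value was not tested. The list, which shares Prlr with the regulators and Slco1a1 with the partner carriers, was chosen for this pattern and is not independent evidence of it. For genotype 0 of the 14 passed.

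Within a sex, the deviation of a kidney from the mean of its sex had the same sign for Slc22a6 and Slc22a12 in every kidney. In mutant female replicate 1 it was −0.30 and −0.37 on the log2 scale, and in mutant male replicate 4 it was −0.16 and −0.23. It was 0.23 and 0.20 in mutant female replicate 2, and 0.13 and 0.10 in mutant male replicate 3. Wild-type replicates 2 and 4 were below the mean of their sex for both genes and wild-type replicates 1 and 3 above it. In mutant male replicate 4 Slc22a27 and Slc22a29 deviated by 0.48 and 0.38, and in wild-type male replicate 4 by −0.24 and −0.30. These are values of single kidneys with no test.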
